A study of Homo sapiens with 8 samples.

Results

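The crosslink sites of dyskerin and of GAR1 that lay away from guide RNAs were compared with each other, gene by gene, by RNA class and by gene region. A site is a single nucleotide at which reverse transcription stopped and which the authors called significant, and its height is a count of cDNAs. Of the 1597056 positions called in the 4 antibody libraries (1623913 in all 8 libraries of the study), 1572098 remained after every site within 100 nt, on the same strand, of 1 of the 991 small nucleolar or Cajal body RNA genes of GENCODE 44 was dropped. The cDNAs left in each library were then scaled to the same total (CPM, counts per 1e6 remaining cDNAs), so that a level states a share of what lies outside guide RNAs and not an amount.

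The libraries came from U2OS, a human osteosarcoma cell line. Cells were irradiated at 254 nm, nuclei were isolated, RNA was trimmed with RNase I, and protein with its crosslinked RNA was recovered with a mouse antibody against dyskerin, with a rabbit antibody against GAR1, or, as a control, with immunoglobulin (IgG) from mouse. Each of the 4 groups (dyskerin, GAR1, and an IgG set labelled for each) held 2 replicates of unmodified cells with no other treatment in the labels, and the mouse IgG did not match the species of the GAR1 antibody. The labels number the replicates without saying whether they were separate cultures, so the p-values measure the spread between these libraries, which may be technical. The IgG libraries enter no comparison here and are given only as background. In the dyskerin set 114122 and 2368 cDNAs of IgG remained, and in the GAR1 set 17187 and 1678, so a value of 0 in the smaller IgG libraries says little.

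Dyskerin is the pseudouridine synthase of the H/ACA ribonucleoprotein, and GAR1 is a small protein that joins the same complex late in its assembly and binds the catalytic domain of dyskerin rather than the guide RNA itself. With NHP2 and NOP10 they use H/ACA RNAs as guides to modify ribosomal and spliceosomal RNA, in nucleoli and Cajal bodies. C/D RNAs, the other large class of guides, carry a box with the consensus UGAUGA and are bound by a separate set of proteins that direct methylation. Most guides of both classes lie in introns of host genes, so a margin around annotated guides also removes part of those introns.

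The step that removed guide RNAs took very different parts of the libraries. In dyskerin 1393270 of 1693951 cDNAs (82.2%) and 1470033 of 1875459 (78.4%) remained. In GAR1 39968 of 585454 (6.83%) and 152573 of 1976518 (7.72%) remained. As a share of all peak cDNAs, guide RNAs included, the mean share outside guides was therefore 11 times higher in dyskerin, and a gene that GAR1 exceeds by less than about that factor on the remaining scale is lower in GAR1 on the scale of all peak cDNAs. Class shares and named genes that turn for this reason are given on both scales, and gene regions and most lists on the remaining scale. GAR1 replicate 1, with 39968 remaining cDNAs, was the shallowest antibody library.

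The sites themselves show what stood out in GAR1. The sequences below are 60-nt windows of the transcript strand, 15 nt before and 44 nt after the crosslinked nucleotide, which is in capitals, as is every TGATGA, the C-box consensus written as DNA. Coordinates are GRCh38 (hg38). The windows of GAS5, SNHG5 and SNRPB are shown because their sites lay in or next to guides that RefSeq lists and GENCODE 44 does not, those of DANCR, EEF1E1, RNU12 and RNU2-2P because they were high in GAR1 with no RefSeq guide within 100 nt, and that of MALAT1 because it held the strongest nuclear-encoded site of dyskerin. DST, NCL and SRRM2 stand for coding-sequence sites called in dyskerin, of which that of SRRM2 was called in GAR1 as well.
GAS5 lncRNA, chr1:173866670-173866729, minus strand: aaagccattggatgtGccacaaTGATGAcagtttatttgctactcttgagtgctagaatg
SNHG5 lncRNA, chr6:85677326-85677385, minus strand: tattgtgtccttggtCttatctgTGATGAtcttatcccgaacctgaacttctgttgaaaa
SNRPB intron, chr20:2462992-2463051, minus strand: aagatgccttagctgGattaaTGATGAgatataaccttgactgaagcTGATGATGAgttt
DANCR lncRNA, chr4:52712603-52712662, plus strand: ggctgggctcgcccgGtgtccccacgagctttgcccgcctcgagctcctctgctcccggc
EEF1E1 intron, chr6:8086492-8086551, minus strand: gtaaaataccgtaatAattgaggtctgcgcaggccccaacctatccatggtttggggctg
RNU12 snRNA, chr22:42615303-42615362, plus strand: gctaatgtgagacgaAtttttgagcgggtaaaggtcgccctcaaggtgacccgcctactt
RNU2-2P snRNA, chr11:62841690-62841749, minus strand: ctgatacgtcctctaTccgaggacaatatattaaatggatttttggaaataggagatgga
MALAT1 lncRNA, chr11:65499620-65499679, plus strand: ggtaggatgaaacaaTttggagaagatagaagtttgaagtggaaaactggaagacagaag
DST coding sequence, chr6:56620091-56620150, minus strand: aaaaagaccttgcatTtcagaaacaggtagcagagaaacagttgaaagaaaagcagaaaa
NCL coding sequence, chr2:231460745-231460804, minus strand: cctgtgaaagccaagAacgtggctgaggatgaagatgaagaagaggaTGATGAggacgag
SRRM2 coding sequence, chr16:2758993-2759052, plus strand: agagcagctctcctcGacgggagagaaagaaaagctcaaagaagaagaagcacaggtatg

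At the GAS5 site GAR1 had 19466 and 8888 CPM and dyskerin 605 and 393 CPM. At the DANCR site GAR1 had 11084 and 9681 CPM and dyskerin 80.4 and 115 CPM. At the EEF1E1 site GAR1 had 7131 and 8422 CPM and dyskerin 59.6 and 242 CPM. In these 3 places the libraries of the proteins did not overlap. The GAR1 IgG libraries had 18328 and 5959 CPM at the GAS5 site, 12626 and 1192 CPM at the DANCR site and 15070 and 5959 CPM at the EEF1E1 site, so IgG replicate 1 lay within or above the GAR1 values at each of them. At the MALAT1 site dyskerin had 652 and 708 CPM, within the GAR1 values of 851 and 446 CPM. The DST site had 36.6 and 27.9 CPM in dyskerin and the NCL site 48.8 and 63.9 CPM, and neither was called in GAR1.

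Guide RNAs that GENCODE 44 does not list made up a large part of what was left of GAR1. Sites within 100 nt of a guide that RefSeq alone lists held 35.1% and 27.0% of the remaining GAR1 cDNAs and 0.908% and 0.687% of those of dyskerin. GAR1 IgG replicate 1 held 31.7% there and replicate 2 6.79%, and dyskerin IgG 0.726% and 3.55%. GAS5, SNHG1 and ATP5F1B had 100% of their cDNAs there in all 4 antibody libraries, and SNHG5 99.6% or more. Results that rest on these genes are therefore given with RefSeq guides dropped as well. Sites beyond 100 nt and within 500 nt of a GENCODE guide added 5.58% and 3.72% of GAR1 and 0.381% and 0.432% of dyskerin.

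The C-box consensus followed GAR1 cDNAs closely. TGATGA was searched on the transcript strand alone. It began 2 to 12 nt downstream of the crosslinked nucleotide for 20% and 12.8% of the GAR1 cDNAs and for 1.63% and 1.62% of those of dyskerin. GAR1 IgG had 17.3% and 5.18%, and dyskerin IgG 1.85% and 3.93%. Counted per site, the shares were 2.51% and 1.39% in GAR1 and 0.948% and 1.01% in dyskerin, against 0.786% and 0.572%, and 0.500% and 0.495%, in windows of the same length 200 nt downstream. Of the GAR1 cDNAs with the motif, 45.3% and 40.3% had it exactly 7 nt downstream, which is the spacing in the GAS5 window above. With RefSeq guides dropped, the shares of cDNAs were 1.40% and 1.04% in GAR1 and 1.12% and 1.25% in dyskerin, which overlap.

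The remaining cDNAs were spread over very different numbers of sites. Dyskerin had 887782 and 907690 sites with 1.57 and 1.62 cDNAs each on average, and GAR1 had 9030 and 31490 sites with 4.43 and 4.85. The 10 highest sites held 0.570% and 0.602% of the dyskerin cDNAs and 13.3% and 8.55% of those of GAR1. It took 274 and 432 sites to hold 50% of the GAR1 cDNAs, and 215285 and 210819 sites for dyskerin. The difference remained when the remaining cDNAs were thinned to the same number, although the sites themselves had been called in libraries of 585454 to 1976518 cDNAs. The dyskerin libraries thinned to 39968 cDNAs still had 37367 and 37080 sites in 5456 and 5422 genes, while GAR1 replicate 1 at that depth had 9030 sites in 1866 genes and replicate 2 thinned to it had 12635 sites in 2621 genes.

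**Figure D1:**
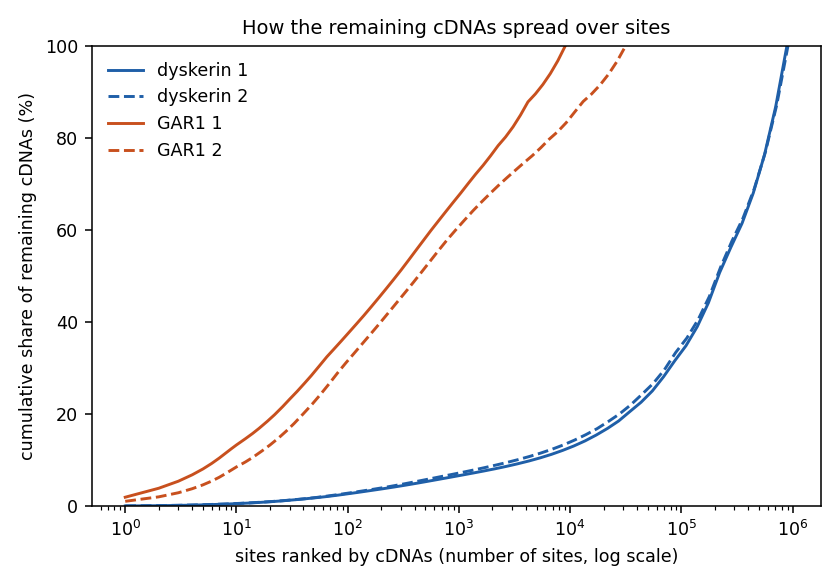
Cumulative share of the remaining cDNAs (%, y axis) against the number of sites taken from the highest down (log scale, x axis) for the dyskerin libraries (blue) and the GAR1 libraries (orange), replicate 1 solid and replicate 2 dashed. The GAR1 curves reach 50% at 274 and 432 sites and the dyskerin curves at 215285 and 210819.

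Positions were shared mostly in terms of GAR1 cDNAs. Of 36677 GAR1 positions 14366 (39.2%) were also called for dyskerin, which is 0.927% of the 1549787 dyskerin positions. These shared positions held 82.5% and 77.7% of the GAR1 cDNAs and 9.09% and 9.76% of the dyskerin cDNAs. Most GAR1 cDNAs thus lay at positions that dyskerin also had, counted with the RefSeq guides kept. Of the GAR1 positions of at least 3 cDNAs, 58.3% were also called for dyskerin. Of 3843 positions called in both GAR1 libraries, 2263 (58.9%) were called in all 4 antibody libraries and 43.6% in a GAR1 IgG library. Of 245685 positions called in both dyskerin libraries, 11.5% were called in a dyskerin IgG library.

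Protein-coding genes held most of what remained of dyskerin and less of what remained of GAR1. Their share was 80.6% and 82.4% in dyskerin and 32.1% and 42.0% in GAR1, with means of 81.5% ± 1.26 and 37.0% ± 7.05 (SD, n = 2). Long non-coding RNAs (lncRNAs) took 16.4% and 14.8% of dyskerin and 48.4% and 36.4% of GAR1. Spliceosomal snRNAs, the RNA cores of the splicing machinery, took 0.582% and 0.527% of dyskerin and 10.2% and 12.4% of GAR1, a ratio of 20.4. Mitochondrial RNA took 0.686% and 0.664% of dyskerin and 4.46% and 5.27% of GAR1. In each of these classes the libraries of the proteins did not overlap, but with 2 against 2 the exact permutation test cannot give a two-sided p below 0.33, which is the value of each.

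Between the IgG sets the snRNA share did not overlap, with 0.832% and 3.84% in the dyskerin set and 9.51% and 6.67% in the GAR1 set. The other classes given above overlapped. Of the classes not given above, miRNAs (0.0315% and 0.549% against 0.768% and 0.715%) and pseudogenes (1.29% and 0.845% against 0.297% and 0.536%) did not overlap either. Protein-coding genes held 71.4% and 48.9% of the dyskerin IgG set and 36.8% and 57.8% of the GAR1 IgG set, lncRNAs 24.0% and 37.8% against 44.9% and 22.8%, and mitochondrial RNA 1.76% and 6.25% against 5.76% and 8.76%. The part of this background in the class differences was not tested. On the scale of all peak cDNAs, snRNAs were 0.478% and 0.413% in dyskerin and 0.694% and 0.957% in GAR1, so GAR1 still stood higher, by 1.85 times. Mitochondrial RNA turned, with 0.564% and 0.520% in dyskerin and 0.304% and 0.406% in GAR1, as did lncRNA, with 13.5% and 11.6% against 3.31% and 2.81%. Protein-coding genes fell further apart, with 66.3% and 64.5% against 2.19% and 3.24%.

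**Figure D2:**
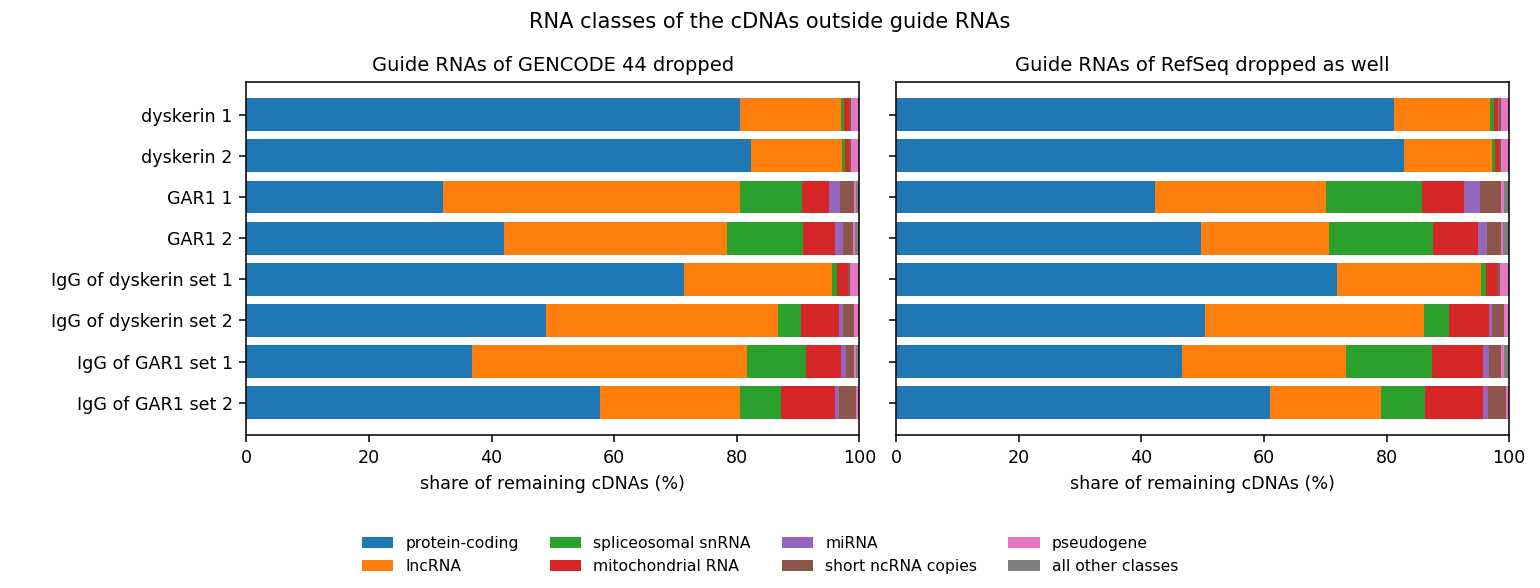
Share of the remaining cDNAs (%, x axis) by RNA class, stacked, in all 8 libraries, with guide RNAs of GENCODE 44 dropped (left) and those of RefSeq dropped as well (right). In the left panel protein-coding genes hold 80.6% and 82.4% of the dyskerin libraries and 32.1% and 42.0% of the GAR1 libraries, and in the right panel 81.2% and 82.8% against 42.2% and 49.7%.

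With the RefSeq guides dropped, each of these classes kept its direction between the proteins, while within GAR1 the protein-coding share rose above that of lncRNAs. Protein-coding genes then held 81.2% and 82.8% of dyskerin and 42.2% and 49.7% of GAR1, lncRNAs 15.7% and 14.3% against 28.0% and 21%, and snRNAs 0.587% and 0.530% against 15.7% and 17.0%. The height of the sites counted did change the picture. At sites of at least 10 cDNAs with the RefSeq guides kept, which held 9.60% and 11.3% of the dyskerin cDNAs and 60.2% and 66.7% of those of GAR1, the protein-coding share was 20.9% and 29.7% in dyskerin and 16% and 27.8% in GAR1. These overlap, as do the lncRNA shares of 64.3% and 58.1% against 60.8% and 44.2%. The mitochondrial shares, 6.27% and 5.18% against 4.88% and 6.58%, overlap too, and the snRNA shares did not, at 5.22% and 3.91% against 13.6% and 17.5%. With the RefSeq guides dropped, the lncRNA share at sites of this height was higher in dyskerin, with 61.6% and 56.3% against 29.7% and 21.8%, which turns the direction found over all sites. Mitochondrial RNA (6.84% and 5.46% against 10.2% and 10.7%) and snRNAs (5.69% and 4.12% against 28.4% and 28.4%) were then higher in GAR1 without overlap, and the protein-coding shares, 22.3% and 30.8% against 22.2% and 33.0%, overlapped.

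Within protein-coding genes, dyskerin lay more in coding sequence and GAR1 more in introns. Coding sequence took 42.5% and 54.4% of the protein-coding cDNAs of dyskerin and 13.8% and 15.4% of those of GAR1, and introns 51.6% and 39.0% against 75.8% and 73.4%. Neither region overlapped between the proteins (exact permutation p = 0.33, the smallest possible). IgG had 35.6% and 31.4% in coding sequence in the dyskerin set and 16.7% and 35.3% in the GAR1 set. Introns are far longer than coding sequence, and per kilobase of the genes hit, coding sequence held 34.8 and 58.5 times the cDNAs of introns in dyskerin and 11.3 times in either GAR1 library. The 3′ UTR share was 1.90% and 1.73% in dyskerin and 3.13% and 2.78% in GAR1, and the 5′ UTR share 1.53% and 1.99% against 1.26% and 1.08%.

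**Figure D3:**
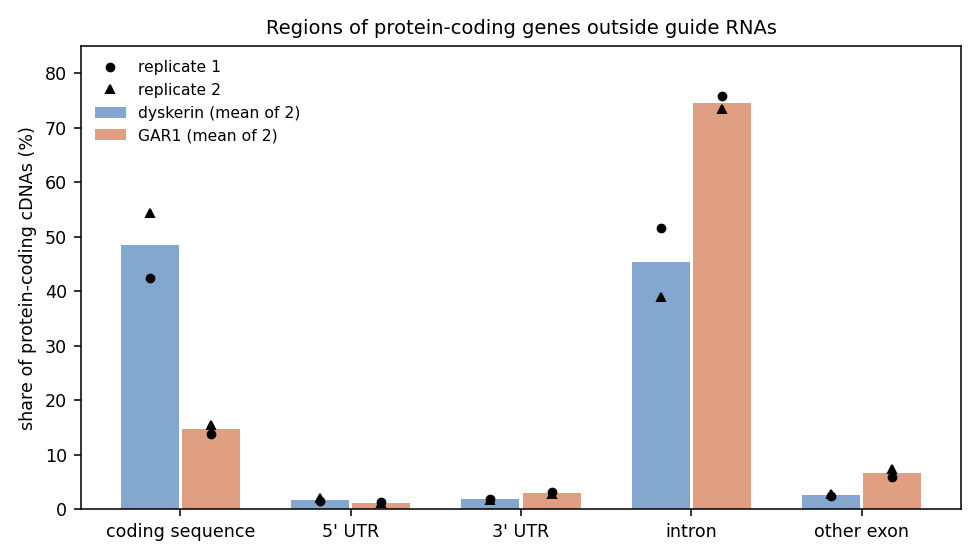
Share of the protein-coding cDNAs (%, y axis) in each gene region for dyskerin (blue) and GAR1 (orange). Bars are means of 2 libraries, circles replicate 1 and triangles replicate 2, and the means of coding sequence are 48.4% for dyskerin and 14.6% for GAR1.

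A purine-rich run was more frequent after coding-sequence sites than further downstream on the genome in both proteins, and it was present after those of IgG as well. GAAGA, a motif chosen after the windows were seen and searched on the transcript strand in the 30 nt after the site with RefSeq guides dropped, was present at 24.4% and 22.4% of the coding-sequence sites of dyskerin and at 45% and 38.2% of those of GAR1. Windows of the same length 200 nt downstream had it at 5.98% and 5.91%, and at 3.47% and 5.31%. These windows were taken along the genome and not the mRNA, so they can lie in introns or UTRs. The contrast therefore cannot separate the site from the exon around it. The coding-sequence sites of IgG had it at 33.5% and 29.4% in the dyskerin set and 41.0% and 21% in the GAR1 set, so dyskerin lay below its IgG set. In introns the shares were 17.7% and 15.6% in dyskerin and 16.9% and 11.6% in GAR1, against 8.37% and 8.75%, and 5.78% and 5.04%, downstream, and IgG had 16.7% and 10.3%, and 13.5% and 7.63%. The SRRM2 and NCL windows above hold such runs. Over all remaining sites, U was the crosslinked base at 32.3% and 32.4% of dyskerin sites and 31.9% and 36.3% of GAR1 sites.

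Gene by gene, edgeR's quasi-likelihood F test was run on the remaining counts of the 6055 genes with at least 10 counts in 2 libraries, with 2 residual degrees of freedom. It called 4149 genes (68.5%) higher in dyskerin and 237 (3.91%) higher in GAR1 at an adjusted p under 0.05. Most of the former count what was absent from the GAR1 calls, since 3293 of the 4149 had no count in either GAR1 library. For those the data give only a bound, set against 3 counts over both GAR1 libraries (15.6 CPM). The bound reached 2-fold in 2048 and 5-fold in 986, and 301 did not exceed the floor at all. The largest bound was that of FAF1, a regulator of ubiquitin-dependent protein turnover, with 2159 and 1769 CPM in dyskerin, at least 126-fold higher than in GAR1, while dyskerin IgG had 2550 and 0 CPM. Without GAR1 replicate 2 the floor rises to 75.1 CPM and each such bound falls 4.82-fold, to 26.1-fold for FAF1. The median fitted log2 difference was 6.56 with every library, 6.01 without dyskerin replicate 1 and 5.87 without dyskerin replicate 2. It was higher without GAR1 replicate 1 and without GAR1 replicate 2. Of the 6055 genes 3582 had no GAR1 count, so these medians are fitted values for genes at 0 and not measured sizes. With genes absent from GAR1 at their bound, the median was 1.34. With a library left out, the lone library of its group was assumed to vary like the other group. Calls from such fits therefore cannot show which libraries the number called rested on. With the RefSeq guides dropped, 2221 genes were called higher in dyskerin and 243 higher in GAR1. Scaling to all peak cDNAs gave 5810 and 64, and 141 of the 237 genes kept a lower level in dyskerin on that scale.

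A count in all 4 libraries was had by 653 genes, and there the calls ran both ways. Of them 149 (22.8%) were higher in dyskerin and 176 (27.0%) higher in GAR1. By class, 133 of 525 protein-coding genes were higher in dyskerin and 106 higher in GAR1, 15 and 27 of 74 lncRNAs, 0 and 13 of 16 snRNAs, and 0 and 18 of 20 annotated copies of short RNAs such as 7SK, Y RNA and 5S. A minimum in every library removes the genes that fell to 0, so these counts describe the overlap of the libraries and not all genes.

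**Figure D4:**
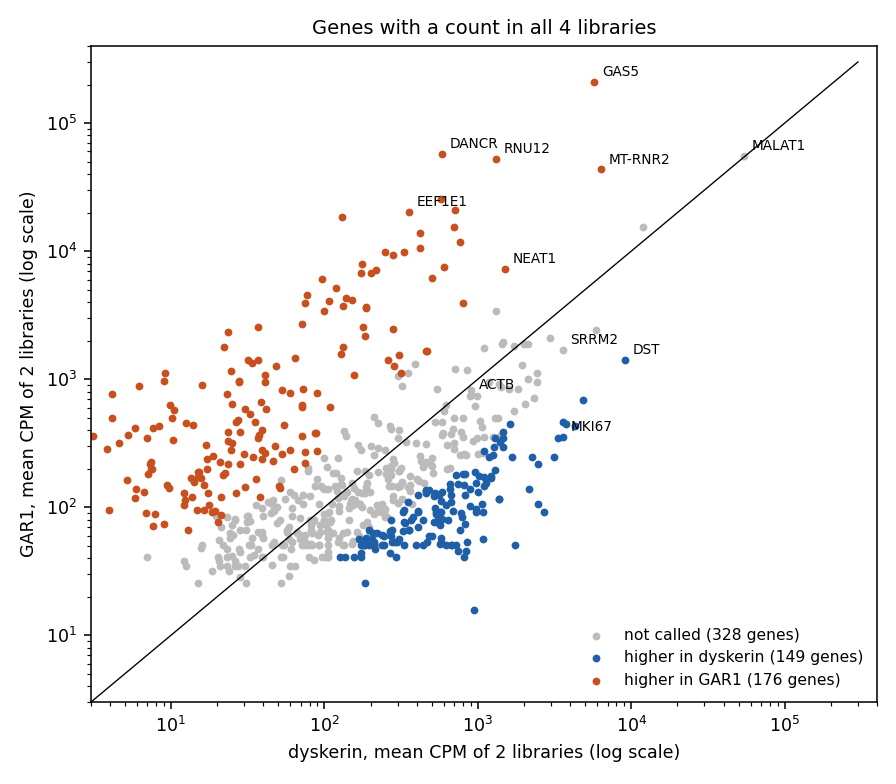
Mean CPM of 2 libraries in dyskerin (x axis) and GAR1 (y axis), both on log scales, for the 653 genes with a count in all 4 libraries, with the line of equal levels. Colours give edgeR's call, 149 genes higher in dyskerin and 176 higher in GAR1, and MALAT1 lies near the line while GAS5, DANCR and RNU12 lie far above it.

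Among the snRNAs, 16 of 23 tested genes were higher in GAR1 and 1 in dyskerin, beside 3.91% and 68.5% of all genes tested. On the scale of all peak cDNAs 5 of the 23 were called higher in GAR1 and 7 in dyskerin. All genes gave 1.1% and 96% on that scale. RNU12, the U12 snRNA of the minor spliceosome (chr22:42615244-42615393), had 1111 and 1513 CPM in dyskerin and 45336 and 58916 CPM in GAR1. Its log2 difference, dyskerin over GAR1, was -5.31 ± 0.60 (SE), with an adjusted p of 5.64e-06 in edgeR's test, and the mean levels differed 39.7-fold. GAR1 IgG had 44685 and 31585 CPM of RNU12, and the former lies close to GAR1 replicate 1. RNU11, the U11 partner of U12, had 50.2 and 23.8 CPM in dyskerin and 1977 and 3120 CPM in GAR1, while GAR1 IgG had 116 and 0 CPM. RNU4ATAC, the U4atac RNA of the same machinery, had 25.8 and 48.3 CPM against 1251 and 1593 CPM, and GAR1 IgG 1105 and 0 CPM.

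On the remaining scale the called RNAs of the major spliceosome were also higher in GAR1, with RNU6-9 as the exception. RNU4-1 and RNU4-2, copies of the U4 snRNA, had mean ratios of 44.8 and 29.4 in favour of GAR1. GAR1 IgG had 2095 and 0 CPM of RNU4-1, and 7622 and 6555 CPM of RNU4-2, for which GAR1 had 8832 and 10690 CPM. RNU7-1, the U7 snRNA that directs histone mRNA processing and is not a splicing RNA, had 91.9 and 61.2 CPM in dyskerin and 5504 and 3664 CPM in GAR1, and GAR1 IgG had 1978 and 0 CPM. RNU2-2P, a copy of the U2 snRNA, had 434 and 963 CPM against 9758 and 21328 CPM (log2 -4.48 ± 0.72, edgeR adjusted p = 0.000144), and GAR1 IgG had 18328 and 11323 CPM. RNU5A-1 had 142 and 66.7 CPM in dyskerin and 25.0 and 387 CPM in GAR1, which overlap. RNU6-9, a copy of the U6 snRNA, was the snRNA called higher in dyskerin on the remaining scale. It had 70.3 and 70.1 CPM and no count in GAR1, at least 4.51-fold, and 307 and 0 CPM in dyskerin IgG. Reads with up to 50 alignments were kept, so values of near-identical snRNA copies are uncertain.

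Other short structured RNAs were fewer. RMRP, the RNA of the endonuclease RNase MRP, had 132 and 171 CPM in dyskerin and 3403 and 4935 CPM in GAR1 (log2 -4.78 ± 0.80, edgeR adjusted p = 0.00019), and GAR1 IgG had 3840 and 0 CPM. RPPH1, the RNA of the related RNase P, had 11.5 and 0 CPM against 0 and 197 CPM and was called higher in GAR1 (adjusted p = 0.00277), although its libraries overlap and the log2 difference without GAR1 replicate 2 was 5.49 (adjusted p = 0.576). RN7SK, the 7SK RNA that holds back transcription elongation, had 695 and 715 CPM against 1151 and 1272 CPM and was not called (log2 -0.78 ± 0.74, adjusted p = 0.34). RNA5S9, a 5S ribosomal RNA gene, had 10.8 and 3.40 CPM against 250.2 and 111 CPM and was called higher in GAR1 (adjusted p = 0.000461).

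Of 7 tested lncRNAs in a list of guide hosts, 3 were called higher in GAR1 (GAS5, SNHG5 and SNHG1) and 2 in dyskerin. These stand beside 3.91% and 68.5% of all genes. DANCR, which also holds a guide, is not in that list and is given below. All the GAR1 cDNAs of GAS5, SNHG5 and SNHG1 lay at RefSeq guides. SNHG29 and SNHG6 were called higher in dyskerin with no count in GAR1, at least 2.91-fold and 1.48-fold, and SNHG14 and ZFAS1 were not called. GAS5, a growth-arrest lncRNA whose introns carry many C/D guides, had 6663 and 4848 CPM in dyskerin and 246322 and 172822 CPM in GAR1, with 228196 and 47676 CPM in GAR1 IgG. The log2 difference was -5.19 ± 0.49 (edgeR adjusted p = 3.35e-07), a 36.4-fold ratio of the means. SNHG5 and SNHG1, further host lncRNAs, had ratios of 43.8 and 29.9. With RefSeq guides dropped, GAS5, SNHG1, SNHG5 and ATP5F1B, which encodes the beta subunit of ATP synthase, had too few counts to test. SNRPB, which encodes a core protein of the spliceosome, had 241 and 258 CPM in dyskerin and 9132 and 10624 CPM in GAR1, with 94.0% and 92.3%, and 100% and 100%, of its cDNAs near a RefSeq guide. Dropping those guides turned its log2 difference from -5.31 to 6.69 (adjusted p = 0.0706), a fitted value and no bound, since no GAR1 count was left. The same step turned RALGAPA1, a subunit of a GTPase-activating complex for Ral, from -7.14 to 8.23 (adjusted p = 0.0371), again with no GAR1 count left.

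DANCR, EEF1E1, BUB1, TRRAP and YY1AP1 were high in GAR1 with at most 3.79% of their cDNAs near a RefSeq guide. DANCR, a lncRNA named for its role in holding back differentiation, had 558 and 609 CPM in dyskerin and 59047 and 56550 CPM in GAR1. The ratio was 99.1 and the log2 difference -6.63 ± 0.62 (edgeR adjusted p = 3.35e-07), and GAR1 IgG had 57602 and 24434 CPM. The DANCR site shown above lay 631 nt from a GENCODE guide on the same strand, within the gene. EEF1E1, which encodes a scaffold of the aminoacyl-tRNA synthetase complex, had 212 and 498 CPM against 16288 and 24152 CPM, a ratio of 57.0, and 49.9% of its dyskerin and 50.1% of its GAR1 cDNAs lay within 10 nt of the intronic site shown above. BUB1, a kinase of the mitotic spindle checkpoint, had 202 and 354 CPM against 7706 and 11077 CPM, and TRRAP, an adaptor of histone acetyltransferase complexes, 502 and 498 CPM against 6580 and 5742 CPM. YY1AP1 had 113 and 233 CPM against 4904 and 8704 CPM, with 67.4% of the GAR1 cDNAs within 10 nt of a single site. MIR3609, which lies in TRRAP, and MIR4449, which lies in DANCR, were called higher in GAR1 as well.

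On the scale of all peak cDNAs DANCR stayed higher in GAR1 (log2 -3.17, edgeR adjusted p = 0.003), as did EEF1E1 (-2.40, 0.0134) and RNU12 (-1.86, 0.0496). GAS5 (-1.70, 0.0886), BUB1 (-1.64, 0.0522) and RNU2-2P (-1.06, 0.232) kept the direction but were not called on that scale.

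SRGAP2, a regulator of neuronal migration, and its human-specific duplicates SRGAP2B and SRGAP2C were also called higher in GAR1. SRGAP2B had 293 and 548 CPM in dyskerin and 7956 and 19827 CPM in GAR1, and SRGAP2C 296 and 549 CPM against 6355 and 14898 CPM. The copies are nearly identical, and the windows at the top sites of SRGAP2B and SRGAP2C have the same letters, so these values may count the same reads. ACVR2B, an activin receptor, had 144 and 49.7 CPM in dyskerin and 9508 and 2622 CPM in GAR1, less than the 21935 and 41120 CPM in GAR1 IgG.

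Of the mitochondrial transcripts, 4 of 6 tested genes were higher in GAR1 and none in dyskerin, beside 3.91% and 68.5% of all genes. On the scale of all peak cDNAs 0 of the 6 were called higher in GAR1 and 1 in dyskerin. All genes gave 1.1% and 96% on that scale. MT-RNR2, the large mitochondrial ribosomal RNA, had 6394 and 6306 CPM in dyskerin and 40858 and 46135 CPM in GAR1 (log2 -2.78 ± 0.53, edgeR adjusted p = 0.000433). IgG held more of it than the antibodies did, with 17218 and 56166 CPM in the dyskerin set and 53005 and 87604 CPM in the GAR1 set. On the scale of all peak cDNAs its difference was 0.68 (adjusted p = 0.449). MT-ND6, a subunit of respiratory complex I, had 219 and 139 CPM against 2852 and 2255 CPM (adjusted p = 0.000851).

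Nuclear lncRNAs did not move together, and of 11 tested members of that list 3 (27.3%) were higher in dyskerin and 2 (18.2%) in GAR1, beside 68.5% and 3.91% of all genes. MALAT1, an abundant RNA of nuclear speckles, had 50890 and 56942 CPM in dyskerin and 67054 and 43160 CPM in GAR1, with a log2 difference of -0.03 ± 0.45 (edgeR adjusted p = 0.954). The IgG libraries held 117725 and 281672 CPM of MALAT1 in the dyskerin set and 65456 and 85816 CPM in the GAR1 set. On the scale of all peak cDNAs it was higher in dyskerin (3.45, adjusted p = 0.00427). NEAT1, the scaffold of paraspeckles, had 1855 and 1148 CPM against 10083 and 4522 CPM (-2.28 ± 0.69, adjusted p = 0.0102), and on the scale of all peak cDNAs 1.23 (adjusted p = 0.16). KCNQ1OT1, an imprinted antisense lncRNA, had 259 and 46.9 CPM in dyskerin and no count in GAR1, at least 9.64-fold higher, or 3.01-fold without dyskerin replicate 1 and 16.6-fold without replicate 2.

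The genes of highest level among those called higher in dyskerin were mostly long, with sites all along them. DST, which encodes the cytoskeletal linker dystonin, had 8937 and 9351 CPM in dyskerin and 1226 and 1606 CPM in GAR1, with 13950 and 4645 CPM in dyskerin IgG. The log2 difference was 2.69 ± 0.66 (edgeR adjusted p = 0.00261), a 6.46-fold ratio, and its call was lost with TMM scaling (adjusted p = 0.0505). GPHN, the gephyrin that anchors inhibitory receptors, had 7840 and 4811 CPM against 0 and 164 CPM (5.99 ± 0.97, adjusted p = 0.000156). AHNAK, a giant scaffold protein, had 6177 and 1693 CPM against 0 and 288 CPM, and its dyskerin libraries differed more from each other than those of DST. MKI67, the proliferation marker Ki-67 that coats mitotic chromosomes, had 3782 and 3386 CPM against 250.2 and 459 CPM (3.30 ± 0.77, adjusted p = 0.00183).

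The other genes of this kind followed the same pattern. ALCAM, a cell adhesion molecule, had 4001 and 2252 CPM in dyskerin and 375 and 118 CPM in GAR1, and MAPK8, the stress kinase JNK1, 3013 and 2582 CPM against 225 and 0 CPM. The lncRNAs LINC02476, TENM3-AS1 and EPIC1 had dyskerin levels of 4792 and 3805, 3867 and 3671, and 2442 and 1706 CPM. EPIC1 had 0 and 6.55 CPM in GAR1. In all 20 genes named for dyskerin the mean levels differed by 6.46-fold to 633-fold, and all 20 had a higher level in dyskerin IgG replicate 1 than the mean of the dyskerin libraries, by 1.24 to 2.60 times. Dyskerin IgG replicate 2, with 2368 cDNAs, was at 0 in 15 of them. Without dyskerin replicate 1 only 2 of the 20 were called and without replicate 2 only 3, and GPHN was the 1 gene called with each library left out in turn.

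In the genes named for GAR1 the top site took a larger share of the cDNAs than in those named for dyskerin, and their GAR1 cDNAs lay at 18 to 417 sites a gene and library. Their mean levels differed by 6.85-fold to 142-fold. The median share at the top site was 18.9% and 18.7% in GAR1 and 19.5% and 17.6% in dyskerin, whereas in the genes named for dyskerin the dyskerin libraries had medians of 0.423% and 0.403%. The top site of the 2 proteins was the same nucleotide in 11 of 20 genes named for GAR1 and in 1 of 20 named for dyskerin. The latter were chosen for a lower level in GAR1. They had medians of 6 and 17.5 sites in the GAR1 libraries, against 2806.5 and 2350.5 in dyskerin, so the 2 counts cannot be compared. In 14 of the genes named for GAR1 the top sites were within 5 nt of each other, whereas they lay 1808 nt apart in GAS5 and 574 nt apart in SNHG1. GAR1 IgG replicate 1 was above the GAR1 mean in 8 of 20, with a median ratio of 0.963. Of the 20, 14 were called without dyskerin replicate 1, 14 without replicate 2 and 14 with RefSeq guides dropped, where 4 could not be tested, and 11 were called with every library left out in turn (GAS5, DANCR, RNU12, SNHG5, SNHG1, EEF1E1, RALGAPA1, RNU2-2P, SRGAP2B, SNRPB and BUB1).

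**Figure D5:**
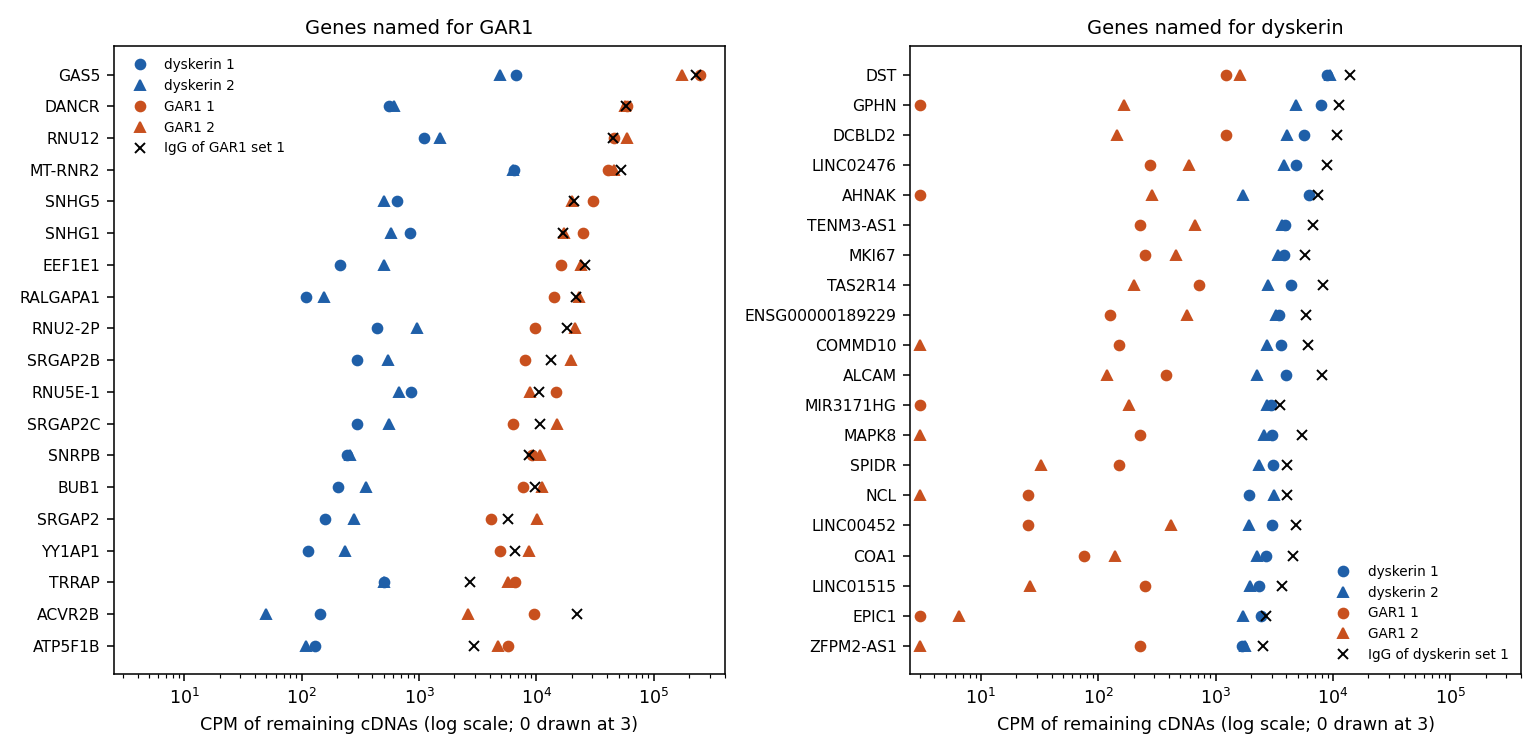
CPM of the remaining cDNAs (log scale, x axis, 0 drawn at 3) in each antibody library for 19 of the 20 genes named for GAR1 (left) and the 20 named for dyskerin (right), with IgG replicate 1 of the matching set as crosses. The crosses of the right panel lie above the mean of the dyskerin libraries in 20 of 20 genes, and those of the left panel exceed the GAR1 mean in 8 of the 19 drawn.

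mRNAs of nucleolar and guide-RNA proteins were mostly seen in dyskerin, with 23 of 25 tested genes called higher there and none in GAR1, beside 68.5% and 3.91% of all genes. Their median log2 difference was 2.78 with genes absent from GAR1 at their bound, against 1.34 over all genes tested on the same basis. NCL, which encodes nucleolin, had 1907 and 3148 CPM in dyskerin and 25.0 and 0 CPM in GAR1 (8.70 ± 1.29, edgeR adjusted p = 7.02e-05). Dyskerin IgG had 4013 and 2534 CPM of it. The GAR1 value of NCL is a single cDNA and the ratio of the means was 202, so the size of the fitted difference is uncertain. TAF1D, a subunit of the RNA polymerase I factor SL1, had 835 and 1079 CPM and no count in GAR1, at least 61.6-fold, with 1341 and 1267 CPM in dyskerin IgG. NPM1, which encodes nucleophosmin, had 181 and 348 CPM (at least 17.1-fold), and NOP58 and NOP56, core proteins of C/D particles, reached bounds of 23.4-fold and 12.7-fold. Dyskerin IgG replicate 1 had 315 CPM of NPM1, 368 CPM of NOP58 and 272 CPM of NOP56, and replicate 2 had none. The mRNA of dyskerin itself, DKC1, had 64.6 and 76.9 CPM and none in GAR1, at least 4.55-fold. The GAR1 mRNA had 12.2 and 1.36 CPM in dyskerin and none in GAR1 and was too low to test. DDX21, a nucleolar helicase, had 287 and 355 CPM against 200.2 and 32.8 CPM and was not called (adjusted p = 0.0662).

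Housekeeping mRNAs were called higher in dyskerin at shares from 42.9% for glycolysis to 67.7% for translation factors, beside 68.5% of all genes. Translation factor mRNAs and ribosomal protein mRNAs (65.2%) lay close to that share. Of translation factor mRNAs 21 of 31 were called higher in dyskerin and none in GAR1, of ribosomal protein mRNAs 30 and 1 of 46, of cytoskeleton and matrix mRNAs 20 and 0 of 33, of chaperone mRNAs 12 and 0 of 22, and of glycolysis mRNAs 6 and 1 of 14. Their medians with bounds were 1.67, 1.07, 1.61, 1.72 and 0.84, against 1.34 over all genes. With RefSeq guides dropped the numbers higher in dyskerin fell to 13, 13, 11, 8 and 2, beside 2221 of 6049 genes in all. These are 41.9%, 28.3%, 33.3%, 36.4% and 14.3%, beside 36.7%, so the translation factor share then lay above that of all genes. EIF3A, the largest subunit of initiation factor eIF3, had 1285 and 2233 CPM in dyskerin and no count in GAR1 (at least 114-fold), with 2278 and 1689 CPM in dyskerin IgG. EEF2, the translocation factor of elongation, had 189 and 267 CPM and no count in GAR1 (at least 14.7-fold). ACTB, the cytoplasmic actin, had 731 and 1065 CPM against 200.2 and 1311 CPM and was not called (0.21 ± 0.82, adjusted p = 0.827).

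Of the mRNAs of speckle, SR and hnRNP proteins, which act in splicing, 23 of 41 (56.1%) were higher in dyskerin, below the 68.5% of all genes, and none in GAR1, and 5 of the 41 were absent from GAR1. Their median was 1.98 with bounds, and 13 (31.7%) were called higher in dyskerin with RefSeq guides dropped, beside 36.7% of all genes. SRRM2, a scaffold of nuclear speckles, had 3265 and 3882 CPM in dyskerin and 1026 and 2373 CPM in GAR1 (1.06 ± 0.70, edgeR adjusted p = 0.168), and ACIN1, an exon-junction factor, 454 and 483 CPM and none in GAR1 (at least 30.1-fold). Replication-dependent histone mRNAs gave 4 and 0 of 7. As a check of the cells, 6 of 8 mesenchymal genes had a count and all 6 reached the minimum. Of 9 epithelial, blood and liver markers 3 had any count and none reached it. COL1A1, the collagen of bone, had 701 and 1184 CPM in dyskerin and 0 and 1606 CPM in GAR1. Of the 6 mesenchymal genes 1 was called higher in dyskerin and 0 in GAR1, which does not bear on the cell type.

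Tested by region, 5511 of 7498 gene regions (73.5%) were higher in dyskerin and 234 (3.12%) higher in GAR1 in edgeR's test. Coding sequence gave 3314 and 6 of 3977 regions, introns 1561 and 200 of 2496, and 3′ UTRs 178 and 11 of 298. Among regions with a count in all 4 libraries, coding sequence gave 65 and 3 of 133 and introns 56 and 117 of 305. All 480 such regions together gave 122 (25.4%) and 138 (28.75%). The 6 coding regions higher in GAR1 included those of ACVR2B and UBE2C, a ubiquitin-conjugating enzyme of mitotic exit, which had 425 and 78.7 CPM in GAR1 and no count in dyskerin, at least 144-fold higher against 3 counts over both dyskerin libraries. These are 17 and 12 counts, and the bound was 75.1-fold without GAR1 replicate 1, 406-fold without replicate 2, and 73.8-fold and 70.0-fold without dyskerin replicate 1 and 2. The coding sequence of CENPF, a kinetochore protein, had 2282 and 2487 CPM in dyskerin and 0 and 203 CPM in GAR1 (4.27 ± 1.02, adjusted p = 0.000265). In RBM25, a splicing regulator, the coding sequence was higher in dyskerin (1616 and 2551 against 300.2 and 773 CPM, adjusted p = 0.0469). Its 3′ UTR was higher in GAR1 (21.5 and 18.4 against 100.1 and 105 CPM, adjusted p = 0.0123). This 3′ UTR excess is below the factor between the scales given above. On the scale of all peak cDNAs the 3′ UTR was therefore lower in GAR1. Without dyskerin replicate 1 only 2 regions were called in either direction, and with the RefSeq guides dropped 2457 and 248.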

How the data were processed

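According to the study's methods and the submitters' processing notes, the authors used FastQC 0.11.9 for quality checks, Cutadapt (its version is not given in those sources) for adapters, STAR 2.7.0e for alignment to GRCh38, allowing 50 alignments per read, and iCount to call significant crosslink sites library by library. The deposited values are counts of cDNAs per site, not normalized. Because each library had its own call, the totals here are of called sites rather than of reads, and weak RNAs can be at 0. The deposited clusters were not used.

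Each position was given, on its strand, to 1 of the 62681 GENCODE 44 genes, short RNAs first with 5 nt added upstream, then exons, then introns. Counts per gene went into the quasi-likelihood test of edgeR 4.0.16 under R 4.3.3, two-sided, with the remaining total as library size and Benjamini-Hochberg adjustment over all genes tested. DESeq2 1.42.0 was an alternative, as were TMM, other margins and filters, a replicate block and leaving out each library. RefSeq guides (1199 genes) were matched by position alone, without strand, so sites on the strand opposite a guide were dropped with them. The test was tried on simulated counts. Counts of the replicates differed by more than sampling noise (chi-square per degree of freedom 18.7 for dyskerin and 16.5 for GAR1), with r = 0.826 and 0.489 across genes on the log2 CPM scale.

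The named genes were, among those called with both libraries of a protein above both of the other, the 12 protein-coding and 8 other genes of highest mean in each direction, plus a preset list and the most extreme members of each gene list, some of which are not reported here. CENPF, UBE2C, RBM25 and FAF1 were chosen after their values were seen. The members and lists were chosen with earlier results of these data known. Floors cover counting error only, since the remaining cDNAs per library ranged from 39968 to 1470033.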

Additional observations from a re-analysis of the deposited data

How the results depend on the processing

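The number of genes called higher in dyskerin, 4149 (68.5% of 6055 tested), was 1850 with TMM scaling, 2051 with DESeq2, 2449 (74.6% of 3283) with a minimum of 50 counts, 2221 with RefSeq guides dropped, 2167 (84% of 2581) at sites of at least 3 cDNAs, 2505 (46.5% of 5386) with sites in 1 gene only, 2927 (21.6% of 13521) with no filter on low counts, 156 among genes with a count in all 4 libraries (chosen after seeing the data), and 6 to 3982 with a library left out. The number higher in GAR1, 237, was 64 with scaling to all peak cDNAs, 676 with no filter, 86 with a minimum of 50, 385 with a margin of 0 nt, 144 at sites of at least 3 cDNAs, 304 with TMM and 16 to 275 with a library left out. Gene regions higher in dyskerin, 5511, were 2088 with TMM, 2457 with RefSeq guides dropped and 2 to 3184 with a library left out, and those higher in GAR1, 234, were 2 to 242. With a library left out, the lone library of its group was assumed to vary like the other group. The cause was not tested. The median fitted log2 difference was 6.56, 7.44 with scaling to all peak cDNAs and 3.05 with DESeq2. It was 1.34 with genes absent from GAR1 at their bound.

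No pairing is given by the labels beyond a shared number, and deviations of same-numbered libraries correlated at 0.169 over 653 genes. With the replicate block 119 genes were higher in dyskerin and 59 in GAR1, and 69 and 30 regions.

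The protein-coding share of dyskerin, 81.5%, was 79.0% with a margin of 0 nt, 88.4% with each site counted once, 66.2% at sites of at least 3 cDNAs and 25.3% at 10. That of GAR1, 37.0%, was 16.7%, 68.9%, 26.8% and 21.9% under the same settings, and 45.9% with RefSeq guides dropped. The intron share of GAR1, 74.6%, was 70.6% with RefSeq guides dropped, 66.4% with each site once, 81.2% at sites of at least 3 cDNAs and 82.4% on canonical transcripts. The coding share of GAR1, 14.6%, was 17.0% with RefSeq guides dropped, 22.6% with each site once and 8.35% at sites of at least 3 cDNAs. Shared GAR1 positions, 39.2%, were 54.2% within 5 nt and 58.3% at 3 or more cDNAs.

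Directions turned for RALGAPA1 (8.23) and SNRPB (6.69) with RefSeq guides dropped and for RPPH1 (5.49) without GAR1 replicate 2 (-8.84 to 5.49 with a library left out). With scaling to all peak cDNAs they turned for GPI (0.91), MT-RNR2 (0.68), NEAT1 (1.23), CCT4 (1.73), EEF1D (3.05), EIF2S3 (2.30), H2BC5 (2.92), MALAT1 (3.45), RN7SK (2.67), RNU5A-1 (2.21), TAGLN2 (3.17) and TARDBP (2.17). Of the named genes reported here, 75 stayed on their side of the threshold with TMM, 6 lost their call and 3 gained one. With the replicate block 63 stayed and 21 lost their call, without dyskerin replicate 1 34 stayed and 50 lost it, and without dyskerin replicate 2 35 stayed and 49 lost it.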
